A study of Mus musculus with 8 samples.

Results

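Footpad skin of wild-type (WT) mouse embryos was compared between E16.5 and E17.5, where E stands for embryonic day. These were 4 of the 8 arrays of the series, 2 for each stage, chosen by their labelled genotype and stage. All embryos were of the C57BL6 background, and each array held RNA from the dissected footpads of 3 to 5 embryos pooled together. The other 4 arrays came from footpads with a conditional knockout of Dicer (KO) at the same stages, 2 arrays each; the labels do not name the promoter that drives the deletion. On every array the footpad RNA was labelled with Cy3 and hybridised beside a universal mouse reference RNA labelled with Cy5, with no dye swap. The E16.5 arrays of both genotypes lay on 1 slide and the E17.5 arrays on the other, so in every comparison of the stages within a genotype the effects of stage and of slide cannot be told apart. Nothing in the labels says whether the 2 pools of a stage came from separate litters.

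The footpads are the hairless cushions of the mouse paw and the only skin of the mouse that carries eccrine sweat glands. Their epidermis sends down buds that elongate into the dermis as ducts before the secretory coil forms. In the same late days of gestation the epidermis stratifies and cornifies, so that a barrier is in place by birth, and dermis, muscle, cartilage, vessels and nerves mature beneath it. Whole dissected tissue holds all of these, and in such tissue a change in the share of a cell type and a change in RNA per cell cannot be told apart. Dicer cuts precursor RNAs into mature microRNAs, short RNAs that pair through their seed with sites in messenger RNAs and lower their output.

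The array carried 42006 probes of 60 bases each. The deposited files identify a probe by number and sequence and pair none with a gene, so most results are given by probe, with the sequence printed for those on which they turn. Of these probes, 28778 gave a Cy3 signal that the scanner marked as well above background on each array of 1 or both WT stages, and 28607 (68.1%) had a value at both stages and were tested. The share of probes well above background ran from 66.5% to 72.0% over the 4 WT arrays, and 266 to 346 probe spots on each were marked as outliers and left out. The level used throughout is the log2 ratio of footpad to reference. It correlated across probes at 0.991 between the 2 WT arrays of E16.5 and 0.989 between those of E17.5, against 0.961 to 0.970 between WT arrays of different stages; probes are not independent replicates.

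Between E16.5 and E17.5, 5306 probes changed in WT footpad, which is 18.5% of those tested (limma, Benjamini-Hochberg adjusted p under 0.05). Both directions took almost equal parts: 2620 probes were higher at E17.5 (9.16%) and 2686 were lower (9.39%). Most changes were small. The median was 1.40-fold among the probes that rose and 1.32-fold among those that fell, and the smallest change called was 0.17 on the log2 scale. Over 2-fold, 380 probes rose and 213 fell. Over 4-fold there were 69 rises and 79 falls, and over 8-fold 21 rises and 33 falls, but a probe near background at 1 stage has no exact fold. Of the probes well above background on all 4 WT arrays, 314 rose and 125 fell over 2-fold, 37 rose and 40 fell over 4-fold, and 5 rose and 14 fell over 8-fold. Both E17.5 arrays lay on one side of both E16.5 arrays in 5268 of the 5306 called probes and in 64.1% of all tested probes. The median difference over all tested probes was -0.02. The spread in this fit was estimated over all 8 arrays. With the 4 WT arrays fitted alone 3633 probes were called, 1946 higher and 1687 lower, and 3230 of the 5306 calls remained. With 2 arrays a stage the count leaned on each of them: it was 1057 without E16.5 replicate 1, 1952 without E16.5 replicate 2, 2438 without E17.5 replicate 1 and 1855 without E17.5 replicate 2. When the scanner intensities were corrected by normexp on all spots in place of the scanner's own processing, 491 probes were called, 305 higher and 186 lower; with the marked spots left out before that fit, 7244 were called, 3807 higher and 3437 lower.

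The probes printed next carry the largest changes among called probes that were well above background on all 4 WT arrays. Each sequence is given 5′ to 3′. The pair with the largest rises was:

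Z00028697-1: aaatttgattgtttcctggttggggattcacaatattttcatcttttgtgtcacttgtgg

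Z00037100-1: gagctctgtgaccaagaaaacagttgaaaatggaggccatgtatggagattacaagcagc

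The pair with the largest falls follows, together with a further probe that shares 35 bases with the first of them; capitals mark the shared stretch, and the further probe was picked for that overlap after its values were seen.

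Z00075312-1: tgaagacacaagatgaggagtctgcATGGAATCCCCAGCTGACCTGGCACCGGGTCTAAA

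Z00041697-1: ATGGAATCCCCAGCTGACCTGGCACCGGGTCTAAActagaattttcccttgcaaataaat

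Z00029389-1: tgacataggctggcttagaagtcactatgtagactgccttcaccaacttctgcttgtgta

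Probe Z00028697-1 had log2 ratios to the reference of 5.12 and 5.38 on the E16.5 arrays and 10.82 and 10.97 on the E17.5 arrays. It was thus rich in footpad RNA at both stages, and the stages did not overlap. The rise of 5.64 ± 0.18 on the log2 scale (SE, n = 2 arrays a stage) is 50.03-fold, with a limma adjusted p of 0.000843. Here and below the SE is that of the limma fit. Its spread is estimated over the WT and KO arrays together, so it is not the spread of the WT arrays alone. With normexp on all spots the rise was 6.82, and 6.68 without the marked spots. In Cy3 alone it rose by 7.47, and the Cy5 signal of the same spots also rose, by 1.81 (limma adjusted p = 0.014). Its KO levels at E16.5 were 3.98 and 3.52, below both WT arrays, and both KO spots at E17.5 were marked as outliers and gave no value.

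Probe Z00037100-1 rose from 2.06 and 3.10 to 6.67 and 6.91. The difference of 4.21 ± 0.39 (SE, n = 2 arrays a stage) is 18.5-fold, with a limma adjusted p of 0.0032, and the rise was 4.87 and 4.83 with normexp on all spots and without the marked ones. Here too the Cy5 signal rose, by 1.51 (limma adjusted p = 0.0233), and Cy3 alone rose by 5.73. In KO the probe went from 3.00 and 2.30 to 4.97 and 4.70, a rise of 2.18, so at E17.5 both KO arrays lay below both WT arrays while at E16.5 they overlapped them. The difference between the WT and KO rises, 2.02, had a limma adjusted p of 0.359.

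Probe Z00075312-1 fell from 6.07 and 5.81 to 1.02 and 0.77, a difference of -5.04 ± 0.14 (SE, n = 2 arrays a stage). That is 33.0-fold, with a limma adjusted p of 0.0004, while normexp gave differences of -3.42 on all spots and -3.58 without the marked ones. Its overlapping partner Z00041697-1 fell from 5.82 and 5.58 to 1.12 and 0.64, a difference of -4.82 ± 0.26. The 2 probes thus gave nearly the same level and the same fall on each WT array. Their Cy5 signals moved by 0.30 and -0.03, neither past the test. In KO the first probe started at the WT level, 6.08 and 5.83, and ended at 2.38 and 2.33, and the second ended at 2.03 and 2.68.

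Probe Z00029389-1 crossed the level of the reference. It stood at 3.27 and 3.45 at E16.5 and at -1.51 and -1.60 at E17.5, a difference of -4.92 ± 0.19 (SE, n = 2 arrays a stage), which is 30.2-fold with a limma adjusted p of 0.000582. With normexp the difference was -3.78 on all spots and -3.83 without the marked ones. The Cy5 signal moved by -0.23 (limma adjusted p = 0.374). KO arrays stood at 3.53 and 3.39 at E16.5 and at 0.17 and 0.75 at E17.5, so the KO fall of 3.00 left the probe above the reference.

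Some probes were well above background at 1 stage only. The share of all probes well above background itself ran from 66.5% to 72.0% between WT arrays. Of the 28607 probes tested, 81 were well above background on both E17.5 arrays and on neither E16.5 array, and the reverse held for 337. The filter took these in through the stage where they are bright, so their direction was given and no count of calls is drawn from them. For such a probe the fold is a lower bound, in Cy3 scaled to each array's 75th percentile: the mean of the bright stage against, on each dim array, the higher of the probe's own signal and the lowest signal of any probe well above background. The ratio to the reference at the dim stage is then set by background, and the adjusted p of its fit is given with that limit. The probes with the largest bounds were, for E17.5 and then for E16.5:

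Z00071194-1: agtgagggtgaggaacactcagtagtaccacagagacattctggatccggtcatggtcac

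Z00037703-1: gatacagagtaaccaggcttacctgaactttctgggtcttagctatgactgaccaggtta

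Z00075904-1: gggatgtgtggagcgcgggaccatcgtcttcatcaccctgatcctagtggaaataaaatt

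Z00026015-1: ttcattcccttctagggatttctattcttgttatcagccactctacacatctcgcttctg

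Probe Z00071194-1 was at least 56.7-fold higher at E17.5 in Cy3. The Cy5 reference also rose at its spots (limma adjusted p = 0.00946), and the bound is not corrected for that rise. Its log2 Cy3 intensity was 4.08 and 4.29 on the E16.5 arrays, not well above background, and 10.75 and 10.54 on the E17.5 arrays. The Cy5 intensity of the same spots went from 3.92 and 3.53 to 7.08 and 6.69, and Cy5 too was well above background on only 2 of the 4 WT arrays. The ratio to the reference at E17.5 was 3.67 and 3.85 in WT and 3.56 and 3.53 in KO, and the limma adjusted p of the WT stage difference in the ratio was 0.00339.

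Probe Z00037703-1 was at least 32.7-fold higher at E17.5, with a steady reference. Its Cy5 intensities were 6.68 and 6.99 at E16.5 and 6.90 and 6.96 at E17.5. The ratio to the reference at E17.5 was 2.41 and 3.44 in WT and 1.94 and 1.53 in KO (limma adjusted p = 0.00152 for the WT stage difference).

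Probe Z00075904-1 was at least 84.2-fold lower at E17.5. Its log2 Cy3 intensity was 11.38 and 11.54 at E16.5 and 4.96 and 5.02 at E17.5, where neither array was well above background. The Cy5 intensities stayed between 9.06 and 9.41 on the 4 WT arrays. The ratio to the reference at E16.5 was 2.19 and 2.13 in WT and 1.76 and 1.91 in KO (limma adjusted p = 0.00082 for the WT stage difference).

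Probe Z00026015-1 was at least 81.3-fold lower at E17.5, from Cy3 intensities of 11.02 and 11.80 to 4.36 and 2.75. Its Cy5 signal was well above background on only 1 WT array. The limma adjusted p of its ratio was 0.0203, and the call was lost without any 1 of E16.5 replicate 1, E16.5 replicate 2 or E17.5 replicate 2, with adjusted p-values of 0.103, 0.0854 and 0.0838. The ratio difference, which background sets here, was -5.77 without E17.5 replicate 2, -8.89 without E17.5 replicate 1 and -4.47 with normexp on all spots.

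**Figure D1:**
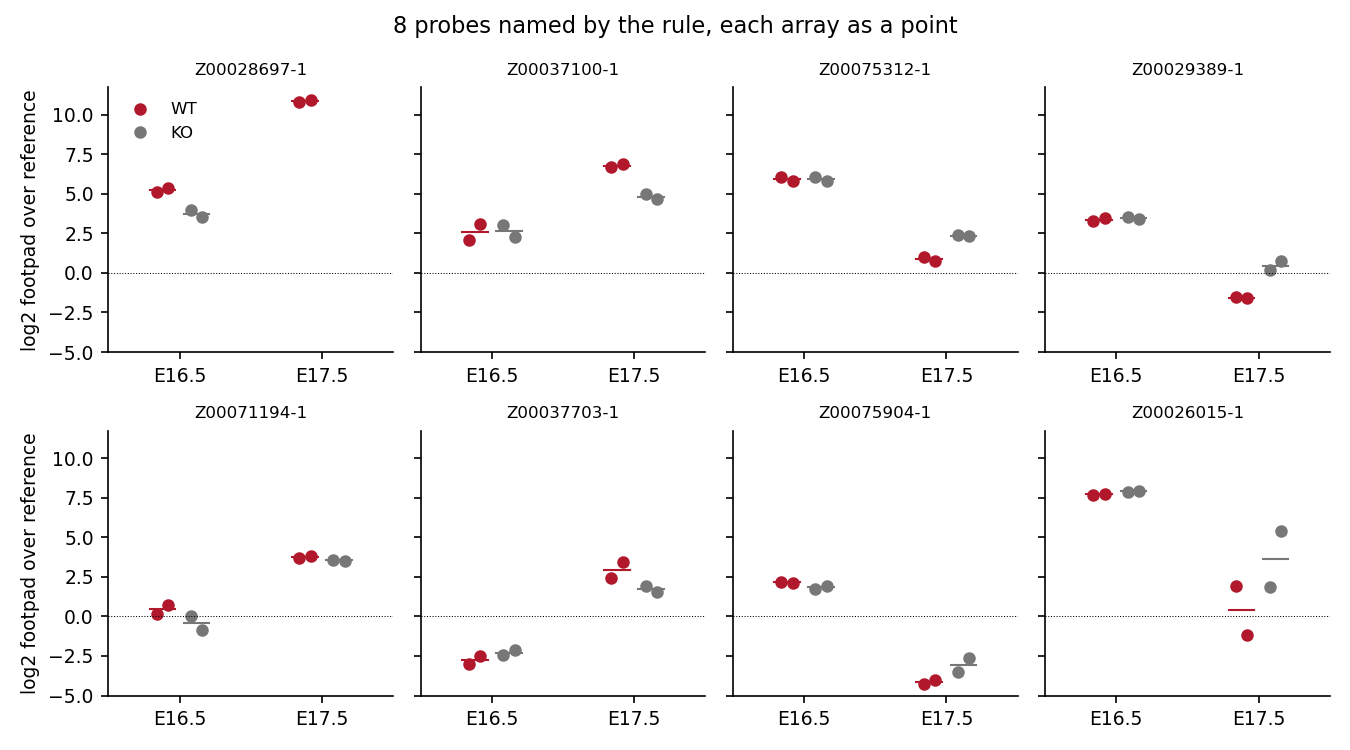
Log2 ratio of footpad to reference for 8 probes, with each array as a point, WT in red and KO in grey, and a bar at the mean of each pair. In the top row, where probes were well above background on all 4 WT arrays, Z00028697-1 rises from 5.12 and 5.38 to 10.82 and 10.97 in WT and has no KO value at E17.5; in the bottom row are the probes seen at 1 stage only, whose ratios at the dim stage are set by background.

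Because stage and slide coincide, the reference dye was tested in the same way as the ratio. All arrays received the same kind of reference RNA in Cy5. In Cy5 alone, scaled to each array's 75th percentile, 110 probes differed between the WT arrays of the slides (0.385%), 81 higher and 29 lower on the E17.5 slide. The SD of the log2 differences over all tested probes was 0.21 in Cy5, against 0.42 in the ratio and 0.48 in Cy3 alone. At an unadjusted limma p under 0.05 there were 2414 probes in Cy5, beside 9840 in the ratio. Of the 593 probes called over 2-fold by the ratio, 417 (70.3%) had Cy5 signals that moved by less than 1.2-fold. That share was not counted over all tested probes, so it does not set these probes apart. Cy3 alone, which uses no reference, called 6201 probes (21.7%), and 4262 of the 5306 ratio calls (80.3%) were called there in the same direction and 2 in the opposite one. An effect of the slide on the footpad label alone was not tested.

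**Figure D2:**
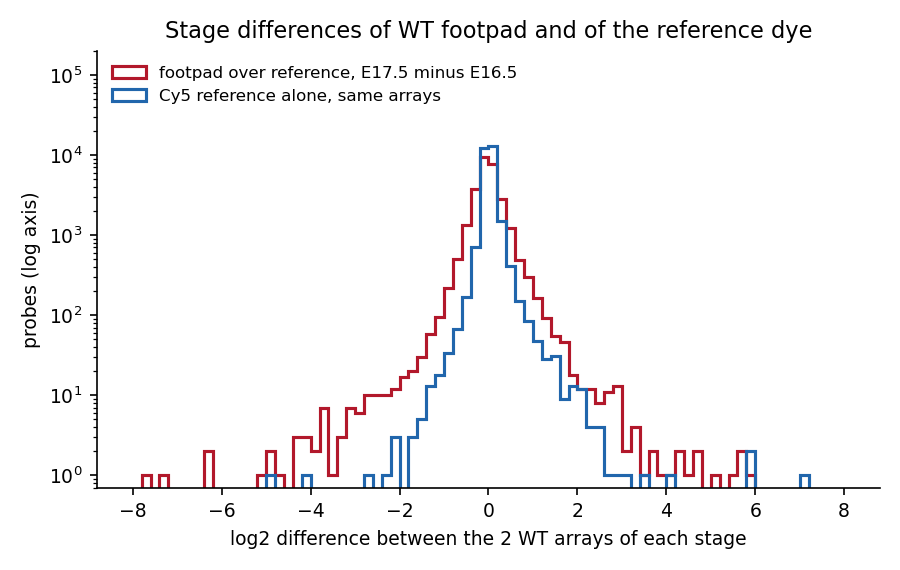
Number of probes, on a log axis, by log2 difference between the stages in WT, in bins of 0.2 (red, footpad over reference; blue, Cy5 reference alone on the same arrays). The red distribution has an SD of 0.42 and the blue one an SD of 0.21, and both have outlying probes at either end.

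At the largest changes Cy5 tended to move with Cy3. The like share over all tested probes was not counted, so this is not shown to be particular to large changes. Cy3 moved over 8-fold at 87 probes, and 57 of these were well above background in Cy5 on all 4 WT arrays. At 49 of the 57, Cy5 moved in the direction of Cy3, and at 19 it passed the Cy5 test. The median shift of Cy5 in the direction of Cy3 was 0.29 on the log2 scale, beside a median Cy3 change of 3.64. Of the 59 probes called both by the ratio and in Cy5, 58 moved one way in both, although dividing by Cy5 works the other way. At these probes the ratio was smaller than the Cy3 change. The cause was not tested.

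Probes that share part of their sequence give a second reading of some changes. Among tested probes, 577 pairs shared 25 or more bases, 1104 probes in all. Across pairs the log2 differences correlated at 0.905 as a description, since both probes of a pair were read on the same arrays, and the median gap within a pair was 0.05. The 2 differences had opposite signs in 70 pairs and lay over 2-fold apart in 8. Both probes were called in 90 pairs, and all 90 went in 1 direction, 48 up and 42 down. Exactly 1 probe was called in 73 pairs, and in 72 of them the other had the same sign. In 34 pairs a probe was called over 2-fold, with the same sign in its partner in all 34 and a partner over 2-fold as well in 23.

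**Figure D3:**
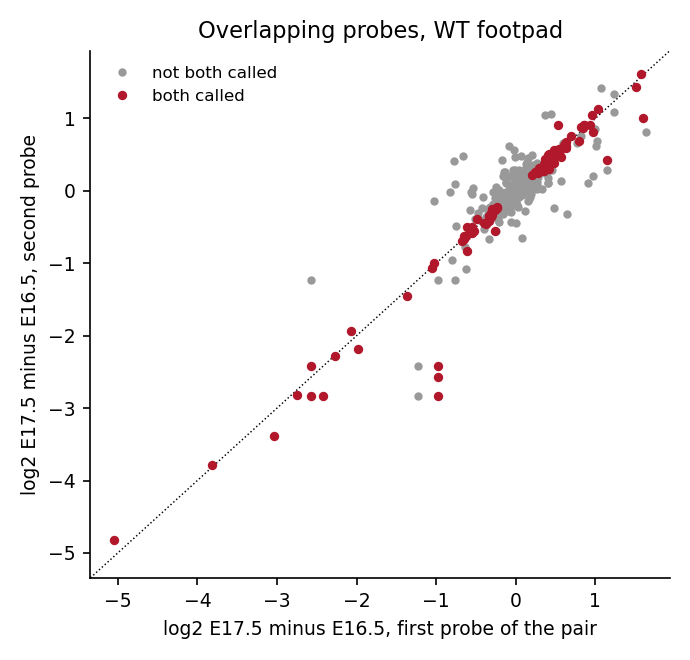
Log2 difference between the stages in WT for the 577 pairs of overlapping probes, one probe on each axis, with pairs called in both probes in red and a dotted line of equality. The lowest point, near -5 on both axes, is the pair Z00075312-1 and Z00041697-1.

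The share of probes called was smallest near the level of the reference and larger away from it on either side. With a mean log2 ratio from -1 to 0 over the 4 WT arrays, 13.8% of 9427 probes were called, and 0.785% were called over 2-fold. On the footpad-rich side the share was 28.4% of 3080 probes from 1 to 2, 30.0% of 2298 from 2 to 4, with 6.44% over 2-fold, and 19.2% of 960 above 4. On the reference-rich side it was 15.5% of 3493 from -2 to -1, 21.0% of 1417 from -4 to -2, with 2.96% over 2-fold, and 17.7% of 249 below that. Rises outnumbered falls at both ends, by 17.4% to 12.6% from 2 to 4 and by 12.1% to 8.96% from -4 to -2, and falls outnumbered rises in the middle, by 7.67% to 6.10% from -1 to 0. The 40 probes that fell over 4-fold and were well above background on all 4 WT arrays went from a median log2 ratio of 3.09 at E16.5 to 0.24 at E17.5, with 34 above the reference before and 23 after. The 37 such rises went from 0.71 to 3.61, with 25 above the reference before and 34 after. Precision differed with brightness too: of 4 equal classes by Cy3 brightness, the dimmest had 9.49% of its probes called and a median SE of 0.181, against 20.4%, 23.5% and 20.9% in the brighter ones, where the median SE was at most 0.089.

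**Figure D4:**
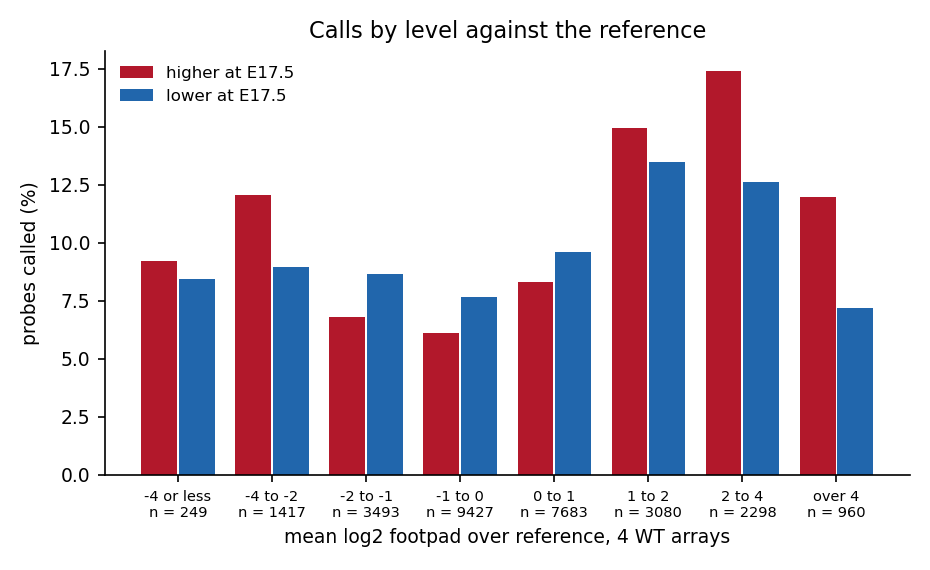
Percent of tested probes called higher (red) or lower (blue) at E17.5 by mean log2 ratio of footpad to reference over the 4 WT arrays, with the number of probes under each pair of bars. Bars for rises are tallest from 2 to 4, at 17.4%, lowest from -1 to 0, at 6.10%, and higher again from -4 to -2, at 12.1%.

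Base composition moved with direction. Among probes with up to 35% G and C, 11.5% were lower at E17.5 and 8.95% higher. Above 60% G and C, 3.35% were lower and 9.36% higher. The median difference ran from -0.06 to 0.03 across these classes in WT, from -0.07 to 0.05 in KO and from 0.01 to -0.01 in Cy5. With the trend on G and C removed from each array, 5208 probes were called, 2758 higher and 2450 lower. The part that composition has in any single change was not tested.

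Gene names could be given to a small set of probes. A probe was named where at least 25 of its bases matched, in the sense direction, the transcribed start of exactly 1 RefSeq gene (GRCm38.p6). This named 157 probes for 157 genes, 75 of which were tested, and 25 probes matched in antisense. Of the 75, 8 were called (10.7%), 4 in each direction, beside 18.5% of all probes; probes at transcript starts are not a random sample of the array. With normexp on all spots, Gm3194 alone of the 8 kept its call (limma adjusted p = 0.0331). The others lost theirs, at limma adjusted p-values of 0.0752 to 0.748. With the marked spots left out before that fit, all 8 were called. Of 662 entries in 22 lists of skin, gland and cell type genes, 5 were matched and 1 was tested, so the lists and the identity of the tissue could not be checked through markers.

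Pitpnm2, a phosphatidylinositol transfer protein, was one of the 2 named genes that rose over 2-fold. Its probe (chromosome 5, 124249711 to 124249755, from the transcript start) stood at 2.11 and 2.15 at E16.5 and at 3.19 and 3.32 at E17.5. The rise of 1.13 ± 0.22 (SE, n = 2 arrays a stage) is 2.18-fold with a limma adjusted p of 0.0238, and KO rose by 1.28. The SD between the WT arrays was 0.03 at E16.5 and 0.09 at E17.5. The KO arrays, which also enter the SE, stood at 2.12 and 1.42 at E16.5. Arl6, a small GTPase that works with the BBSome in membrane traffic to the cilium, rose by 1.11 ± 0.16, which is 2.16-fold (limma adjusted p = 0.01). Its levels were 1.14 and 1.12, then 2.14 and 2.34 (chromosome 16, 59639290 to 59639347), and KO rose by 1.19. In both genes the stages did not overlap in either genotype. The Pitpnm2 probe held 81.7% G and C and the Arl6 probe 63.3%. With the trend on G and C removed, the WT rise was 0.98 for Pitpnm2, below 2-fold, and 1.06 for Arl6. The WT rise minus the KO rise was -0.16 ± 0.32 for Pitpnm2 and -0.07 ± 0.23 for Arl6 (SE, n = 2 arrays in each of the 4 groups). The Pitpnm2 call was lost without any 1 of the WT arrays, at limma adjusted p-values of 0.0798 to 0.12, and the Arl6 call without E16.5 replicate 1, E16.5 replicate 2 or E17.5 replicate 2, at 0.0658, 0.0544 and 0.0598.

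Pla2g2d, a secreted phospholipase A2, rose from 0.75 and 0.77 to 1.30 and 1.21 (chromosome 4, 138775738 to 138775784). The difference was 0.50 ± 0.12 with a limma adjusted p of 0.0449, and its Cy5 difference between the slides was 0.43, which did not pass the test. Crxos, a homeobox gene, rose from -0.66 and -0.69 to -0.44 and -0.37, by 0.27 ± 0.06 (limma adjusted p = 0.0384). Its limma adjusted p was 0.0632 when the 4 WT arrays were fitted alone. Both calls were lost when either E16.5 array or either E17.5 array of WT was left out.

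Ntng1, which encodes netrin-G1, a membrane-anchored protein of axon guidance, had the highest ratio to the reference among the genes called. Its levels were 6.29 and 6.14 at E16.5 and 5.74 and 5.47 at E17.5 (chromosome 3, 110143430 to 110143489). The fall of 0.61 on the log2 scale (SE 0.11, n = 2 arrays a stage) had a limma adjusted p of 0.0195, which became 0.114, 0.0585 and 0.0753 without E16.5 replicate 1, E16.5 replicate 2 and E17.5 replicate 2. KO fell by 0.44. With the 4 WT arrays fitted alone the limma adjusted p of the WT fall was 0.0568. Leng1 fell from 0.06 and 0.08 to -0.30 and -0.34 (chromosome 7, 3665794 to 3665853), by 0.39 with an SE of 0.05 and a limma adjusted p of 0.00599, and KO fell by 0.27. Without E16.5 replicate 1 its limma adjusted p was 0.0515. The predicted genes Gm3194 and Gm11295 fell by 0.64 and 0.52 (limma adjusted p = 0.00636 and 0.0112); close copies of either, if transcribed, could share the probe. Without E16.5 replicate 1 their limma adjusted p-values were 0.0542 and 0.0631, and Gm11295 also lost its call without E16.5 replicate 2 (0.0636) or E17.5 replicate 2 (0.0646).

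Named genes that did not pass the test are given by role, in groups made with their values known. The 6 histone probes differed by -0.36 to 0.13, and the nearest to a call was H4c3, an H4 histone, at -0.36 (limma adjusted p = 0.0527); histone genes are near copies of one another, so their probes are uncertain. The 5 ribosomal protein probes lay between -0.03 and 0.12, with Rpl10a at -1.94 and -1.99 before and -1.99 and -1.94 after. Among 4 enzymes of redox and sugar metabolism the range was -0.28 (Taldo1, of the pentose phosphate pathway) to 0.09 (Sord, sorbitol dehydrogenase). Acta2, the smooth muscle actin, differed by -0.44 (limma adjusted p = 0.129) and Actg1, a cytoplasmic actin, by 0.09. Cdca7 and Kif22, both linked to cell division, differed by -0.23 and -0.06. Of 31 probes for olfactory, vomeronasal and trace amine receptors, 24 were well above background on no WT array, 3 were tested and 0 were called by limma.

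**Figure D5:**
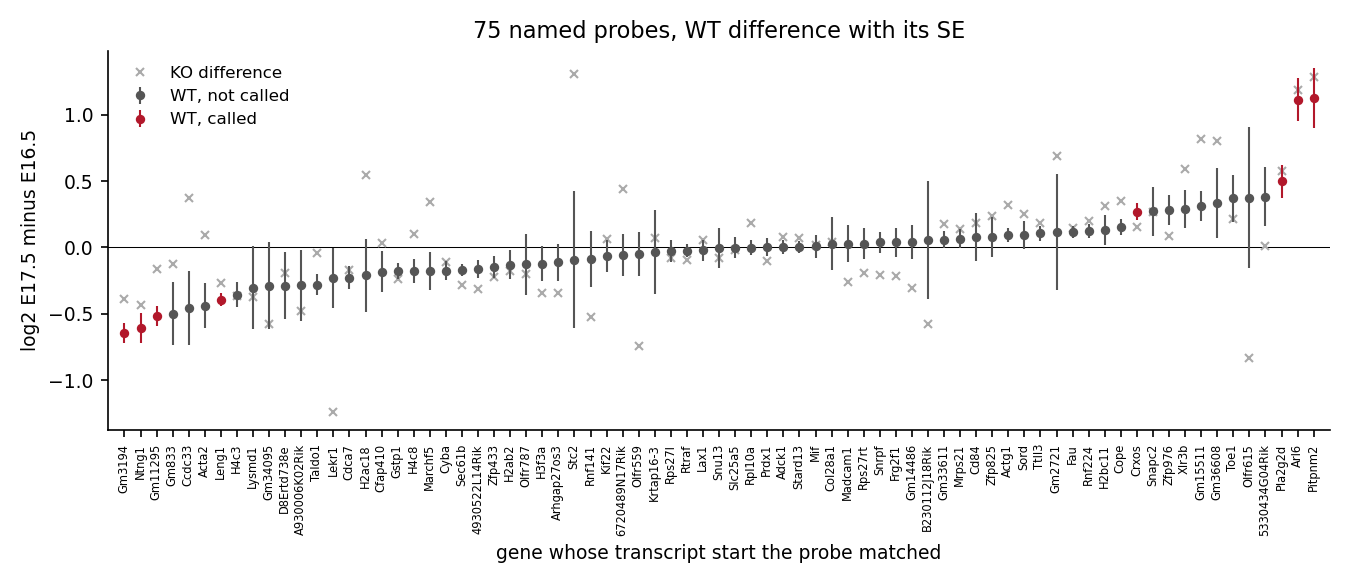
Log2 difference between the stages in WT, with its SE, for the 75 tested probes named by a transcript start, in order of size; red marks the 8 called, and grey crosses give the KO difference. Arl6 and Pitpnm2 stand at the right end, at 1.11 and 1.13, with KO values of 1.19 and 1.28.

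The KO arrays, which share slides but no array with WT, went through the same stages. There 6525 of 28509 probes were called (22.9%). Of the 5302 WT calls with a KO value, 5050 (95.2%) had the same sign in KO, 3439 were called in that direction and 22 in the opposite one. Since each stage sat on 1 slide in both genotypes, a slide effect common to all its arrays would also give the same sign. Among the 591 probes called over 2-fold in WT, 561 had the same sign in KO and 458 were called there in that direction. The same-sign share over all tested probes was not counted, so neither of these same-sign counts sets the called probes apart. Among probes well above background on all 8 arrays, the 39 that fell over 4-fold in WT had a median of -2.63 in WT and -1.73 in KO, and 39 of 39 fell more in WT. The 32 that rose over 4-fold in WT had medians of 2.45 and 2.06, and 24 rose more in WT. These sets were chosen on WT, which favours the larger WT value. Of the sets chosen on KO by the same rule, 17 probes fell over 4-fold, with medians of -3.65 in WT and -2.74 in KO, and 14 of them fell more in WT. Of 29 rises so chosen, 8 were larger in WT, with medians of 2.09 in WT and 2.33 in KO.

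The difference between the WT and KO stage changes is free of a slide effect that both genotypes share. By limma, 0 of 28509 probes passed (0%), with a smallest adjusted p of 0.0531 and 3322 probes at an unadjusted p under 0.05, where 5% of those tested is 1425. With normexp after the marked spots were left out, 88 passed, 56 higher and 32 lower. The probes printed here had small p-values in each direction, at limma adjusted p of 0.116 to 0.144. They are not the probes with the smallest adjusted p of all. The pair in which the WT change was the higher was:

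Z00032691-1: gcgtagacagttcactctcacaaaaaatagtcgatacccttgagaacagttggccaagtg

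Z00055262-1: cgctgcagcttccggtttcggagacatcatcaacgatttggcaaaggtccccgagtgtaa

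The pair in which the WT change was the lower shares 32 bases, given in capitals:

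Z00030723-1: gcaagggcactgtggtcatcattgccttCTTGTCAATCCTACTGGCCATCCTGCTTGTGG

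Z00073972-1: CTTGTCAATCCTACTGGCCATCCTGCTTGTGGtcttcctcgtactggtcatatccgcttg

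Probe Z00030723-1 stood at 2.95 and 2.87 in WT and at 2.87 and 2.95 in KO at E16.5. At E17.5 it stood at 0.94 and 0.91 in WT and at 2.16 and 2.34 in KO. Its overlapping partner Z00073972-1 went from 3.14 and 3.02 to 0.95 and 0.85 in WT, and from 3.07 and 3.10 to 2.15 and 2.31 in KO. In both probes the genotypes overlapped at E16.5 and did not at E17.5. The probes were picked by the difference between the WT and KO changes. They were read on the same arrays, so the partner is no separate evidence. The WT fall exceeded the KO fall by 1.32 in each (SE 0.11, n = 2 arrays in each of the 4 groups, limma adjusted p = 0.116). With normexp and the marked spots left out both passed, at -1.24 and -1.26 (limma adjusted p = 0.00211 and 0.00214), and with normexp on all spots neither did, at -0.75 and -0.82. The Cy5 differences between the slides were -1.44 and -1.15, and both passed the Cy5 test (limma adjusted p = 0.000486 and 0.00928). In Cy3 alone the WT differences were -3.41 and -3.32.

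Probe Z00055262-1 rose in WT from -2.26 and -2.16 to -0.49 and -0.80, and in KO stood at -2.73 and -2.55, then at -2.94 and -2.85. Both values at E17.5 in WT lay above all other arrays. The difference of 1.82 ± 0.17 had a limma adjusted p of 0.144. It was 0.23 with normexp on all spots and 0.69 without the marked ones, where it passed (limma adjusted p = 0.0102). Only 2 of the 4 KO arrays were well above background for it, as for Z00032691-1, which rose by 0.43 in WT and fell by 0.96 in KO (limma adjusted p = 0.116 for the difference of 1.40, which was 0.18 and 0.28 in the normexp settings).

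MicroRNA seed sites were counted in the probes, since a probe samples 60 bases of its transcript. A site is an exact match to the reverse complement of bases 2 to 8 of the mature sequence, on the probe strand only. Of 24 miRNAs of skin and of the embryo that were looked for, 20 were in the RefSeq table. Those printed are miR-203 and miR-205, both abundant in epidermis, and the 4 others whose shares stood farthest from the background of 9.16% higher and 9.39% lower in WT (10.3% and 12.6% in KO); capitals mark the seed, and no 2 of these share one.

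mmu-miR-203-3p: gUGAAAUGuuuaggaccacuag

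mmu-miR-205-5p: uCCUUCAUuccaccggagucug

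mmu-miR-125b-5p: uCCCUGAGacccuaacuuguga

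mmu-miR-19b-3p: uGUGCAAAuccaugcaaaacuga

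mmu-miR-24-3p: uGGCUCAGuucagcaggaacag

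mmu-miR-21a-5p: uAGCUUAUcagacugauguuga

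Probes with the site of miR-203 (CATTTCA), an miRNA of the differentiating epidermis, were near the background, with 9.90% of 192 higher and 9.90% lower. Those with the site of miR-205 (ATGAAGG), also abundant in epidermis, were 11.8% higher and 10.2% lower of 187. The site of miR-125b (CTCAGGG) was held by 137 tested probes, of which 22 (16.1%) were higher and 7 (5.11%) lower; in KO, 15.3% of its probes were higher and 7.30% lower. The site of miR-19b (TTTGCAC) was held by 145, of which 17 (11.7%) were higher and 26 (17.9%) lower, and in KO 9.66% and 15.9%. For miR-24 (CTGAGCC) the shares were 7.65% and 14.1% of 170, and in KO 9.41% and 15.9%. For miR-21a (ATAAGCT) they were 3.41% and 9.09% of 88, and in KO 7.96% and 9.09%. These shares were picked as extremes out of 20 and carry no test. Median G and C was 51.7% in the miR-125b probes and 49.2% in those of miR-24. It was 41.7% for miR-19b and 40.8% for miR-21a, beside 45% over all tested probes. The part of base composition in these shares was not tested.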

How the data were processed

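Per the file headers, the authors used version 9.5.1.1 of Agilent Feature Extraction. The deposited files give, for each of 43451 spots, a processed intensity for each dye, from which the program had taken the background and evened the dyes; 1417 were control spots and were left out. The deposited series matrix holds log10 values whose differences between arrays matched those log ratios to within 0.000193 on 23843 probes bright in both dyes; its column medians ran from 2.23 to 2.24, all 8 columns were matched to a sample, and what was added to centre each probe is not given in the sources used here. How the array's probes were chosen is also not given.

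The log2 ratio of processed Cy3 to Cy5 was computed, marked spots were left out, spots of a probe were averaged, and 1 mean for each of the 4 groups was fitted over all 8 arrays with limma 3.58.1 in R 4.3.3. Calls used a Benjamini-Hochberg adjusted p under 0.05. The script was tested on simulated data. The number of arrays, 2 in each group, limits the precision. SEs and p-values measure only the spread between these pools, estimated over the WT and KO arrays together.

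Members, lists and tests were chosen with earlier results of these data known. The planned rule named genes through a protein table, which was not used here; matches to RefSeq transcript starts were used in its place, after the files were seen. Unnamed probes were to be the 2 largest rises and falls; the probes seen at 1 stage, those of the WT and KO comparison and the overlapping partners were added with values in view. Same-numbered arrays of the 2 stages or genotypes deviated from their group means with correlations of -0.10 to 0.12, so the numbers were not taken to pair samples.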

Additional observations from a re-analysis of the deposited data

Results flagged for a closer look

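At probe Z00032691-1 the WT arrays rose between the stages and the KO arrays fell, each array of a stage lying on the same side of both arrays of the other stage. The stage change was 1.399 higher in WT than in KO on the log2 scale, and the direct test of that difference did not pass (limma adjusted p = 0.116). It was 0.18 with normexp on all spots and 0.28 without the marked ones. At probe Z00055262-1 the WT arrays stood higher at E17.5 and the KO arrays lower, with a difference of 1.822 (limma adjusted p = 0.144). The KO change there, -0.26, did not pass by itself (limma adjusted p = 0.172). With normexp and the marked spots left out the difference at Z00055262-1 was 0.69 and passed (limma adjusted p = 0.0102), and on all spots it was 0.23. For both probes only 2 of the 4 KO arrays were well above background.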

How the results depend on the processing

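The WT stage count of 5306 fell to 491 with normexp on all spots, to 2660 with no filter on dim probes (1467 higher, 1193 lower) and to 1557 at an adjusted p under 0.01; leaving out 1 array at a time gave 1057 to 4734. Of the 5306 calls, 5298 kept their direction under normexp on all spots and 486 were still called; without the marked spots 4920 were. The WT against KO difference had 88 calls with normexp without marked spots, 1 each with Cy3 alone, quantile normalization, the trend and robust prior and array weights, and 0 to 2 with an array left out. The Cy5 count of 110 became 55 with the WT arrays fitted alone and 13 to 32 with a WT array left out. The KO count of 6525 became 1129 to 4433 with a KO array left out. With the replicate block the counts were 3959 in WT, 4624 in KO, 0 for the difference and 53 in Cy5, and Crxos and Pla2g2d lost their calls. With the 4 WT arrays fitted alone the WT count was 3633, and Ntng1 and Crxos lost their calls. Of 468 values of the 20 probes and genes followed, 410 kept their side of the threshold, 55 lost a call, 3 gained one and 0 were reversed. Z00028697-1, Z00037100-1, Z00075312-1, Z00029389-1, Z00071194-1, Z00037703-1 and Z00075904-1 kept their calls in every setting that gave them a value, though normexp moved the size of all but Z00071194-1 by over 1.5 times. Of these, Z00071194-1, Z00037703-1 and Z00075904-1 passed the filter only through their bright stage, so their kept calls are no check of them. Settings that required all 4 WT arrays to be well above background gave them no value. The filter on both dyes and the removal of the G and C trend were chosen after seeing the data and gave 5720 and 5208 WT calls. Dim probes had the widest errors, and the 2 arrays a group limit every count.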
